A study of Mus musculus with 9 samples.

Results

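The genes described here are Ddr2 and 9 genes of its wider class: the collagen receptor Ddr1, the TAM receptors Mertk and Tyro3 with their ligand Gas6, the epidermal growth factor receptors Egfr and Erbb2, the hepatocyte growth factor receptor Met, and the insulin-like and insulin receptors Igf1r and Insr. They were chosen by symbol in the iGenomes gene table, and all 10 were found among its 17565 gene rows. Ddr2 was chosen because its level with the TAZ-CAMTA1 fusion was among the largest rises, so its values in comparisons with that fusion are given as a description, without a test. Of the 10 genes, 9 passed the filter on low values and Egfr did not.

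The cells were MS1, an endothelial line from mouse pancreas. All 3 groups had been transduced with lentivirus of the pCDH family and each has 3 samples: control cells carried the empty puromycin vector, the second group stably expressed TAZS4A (written TAZ4A here), and the third stably expressed TAZ-CAMTA1. TAZ is a transcriptional co-activator restrained by the Hippo pathway. In TAZ4A, sites of Hippo phosphorylation are mutated, and TAZ-CAMTA1 is the fusion found in epithelioid hemangioendothelioma. MS1 is a single immortalized line, and the labels do not say whether replicates were separate cultures or separate transductions, so the p-values measure only the spread between these samples, which may be technical. Poly-A RNA was sequenced from bulk cells, in which fewer expressing cells and less RNA per cell cannot be told apart.

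Receptor tyrosine kinases sit in the plasma membrane, bind a ligand outside the cell and phosphorylate tyrosines on themselves and on adaptors inside it, which passes the signal to the Ras and PI3K pathways. Most answer soluble growth factors. The discoidin domain receptors Ddr1 and Ddr2 answer fibrillar collagen itself, with slow and sustained activation, and Ddr2 is best known from fibroblasts and other mesenchymal cells. The TAM receptors bind Gas6 and protein S and take part in the clearance of dying cells, and endothelium is better known for the VEGF, angiopoietin and Eph receptors.

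Reads assigned to genes numbered 21966004 to 34224715 per library, and 3 reads corresponded to 0.0878 to 0.139 CPM, the authors' unit for reads scaled to library size. The endothelial markers summed to 9726 to 10040 CPM in control, 6616 to 6813 in the TAZ4A-labelled libraries and 8884 to 11130 in TAZ-CAMTA1. Among these 10 markers Cldn5 alone was near 0, at no more than 0.0394 CPM on average in any group. The fibroblast and mesenchymal markers summed to 6.158 to 8.079, 19.27 to 21.18 and 13.74 to 20.54 CPM, with Lum, Thy1 and Postn below 0.1 CPM in all groups. Mouse Wwtr1, which encodes TAZ, averaged 551 ± 17.6 CPM (SD, n = 3) in control, 325 ± 8.7 in the TAZ4A-labelled libraries and 437 ± 94.4 in TAZ-CAMTA1, so it was lower where the label names the TAZ mutant; the species of the construct is not given. Ankrd1, a known target of TAZ, averaged 31.2, 398 and 108 CPM in the same order, and Camta1 averaged 4.05, 4.91 and 13.1 CPM.

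TAZ-CAMTA1 replicate 2 stood apart from every other library. Its log2 levels correlated at 0.9628 and 0.9619 with the other TAZ-CAMTA1 libraries, while no other pair of replicates was below 0.9975. Its level relative to the mean of replicates 1 and 3 fell with gene length: with the genes divided by length into 4 sets of 3077, the median ratio was 1.46 in the shortest set and 0.656 in the longest. Among the members this ratio was 0.356 for Mertk, 0.502 for Insr, 0.504 for Ddr2, 0.526 for Met and 0.584 for Igf1r, against 0.913 for Ddr1, 0.919 for Erbb2, 1.06 for Gas6 and 1.09 for Tyro3. The members did not follow length closely: Mertk, at 1.23 times the length of the median gene, had the lowest ratio, and Tyro3 and Erbb2, at 1.67 and 1.73 times, stayed near 1. In the same library, splice-junction reads were scarce toward the 5′ end: the share in the introns nearer the 5′ end (the first 7 to 13 of each gene, as many as lay in the 3′ part or 1 fewer) was below that of all 8 other libraries in 8 of 9 members. It was 6.06% for Met (30.9 to 38.5% elsewhere), 10.1% for Igf1r (41.9 to 51.3%) and 11.5% for Insr (39.9 to 46.2%). The part of this difference in the results was not tested beyond leaving the library out, so TAZ-CAMTA1 results of the members and of the lists are given below with and without it. This library also enters the shared estimate of the spread, and so bears on TAZ4A against control. There 3077 genes were called with all libraries and 7206 without it. For the other genes named, the value without it is given where the call changes, the direction turns or a called change moves by over 1.5 times.

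**Figure D1:**
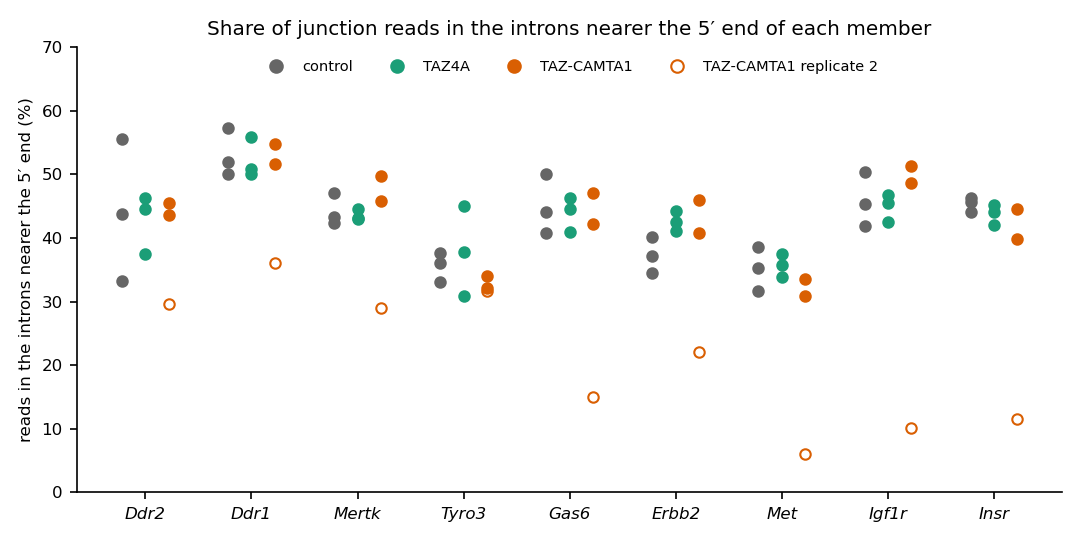
Share of uniquely mapped junction reads (y axis, %) that fell in the introns nearer the 5′ end of each member (x axis), 1 point per library, coloured by group; the open circle is TAZ-CAMTA1 replicate 2. The open circle lies below all other points for 8 of 9 members, with Tyro3 the exception.

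The authors' TPM values, which are scaled for transcript length as well as library size, place the members against each other. In control cells Mertk led by far at 198 ± 16.9 TPM (SD, n = 3). Insr followed at 18.1 ± 1.02, Erbb2 at 15.1 ± 0.488, Met at 13.3 ± 1.17, Ddr1 at 12.2 ± 0.205, Tyro3 at 5.65 ± 0.119, Igf1r at 5.41 ± 0.198, Gas6 at 2.25 ± 0.0695 and Ddr2 at 1.10 ± 0.0952 TPM. The ranges of Met and Ddr1 overlapped, as did those of Tyro3 and Igf1r, and the other neighbours did not. Egfr was at 0. In the TAZ4A-labelled libraries, Ddr2 stood second, at 26.6 ± 1.22 TPM, with its range overlapping that of Met at 25.9 ± 1.07 TPM. In TAZ-CAMTA1, Ddr2 was again second in mean TPM, at 45.6, 18.4 and 44.7 TPM in the 3 libraries, behind Mertk at 160, 46.7 and 165 TPM.

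**Figure D2:**
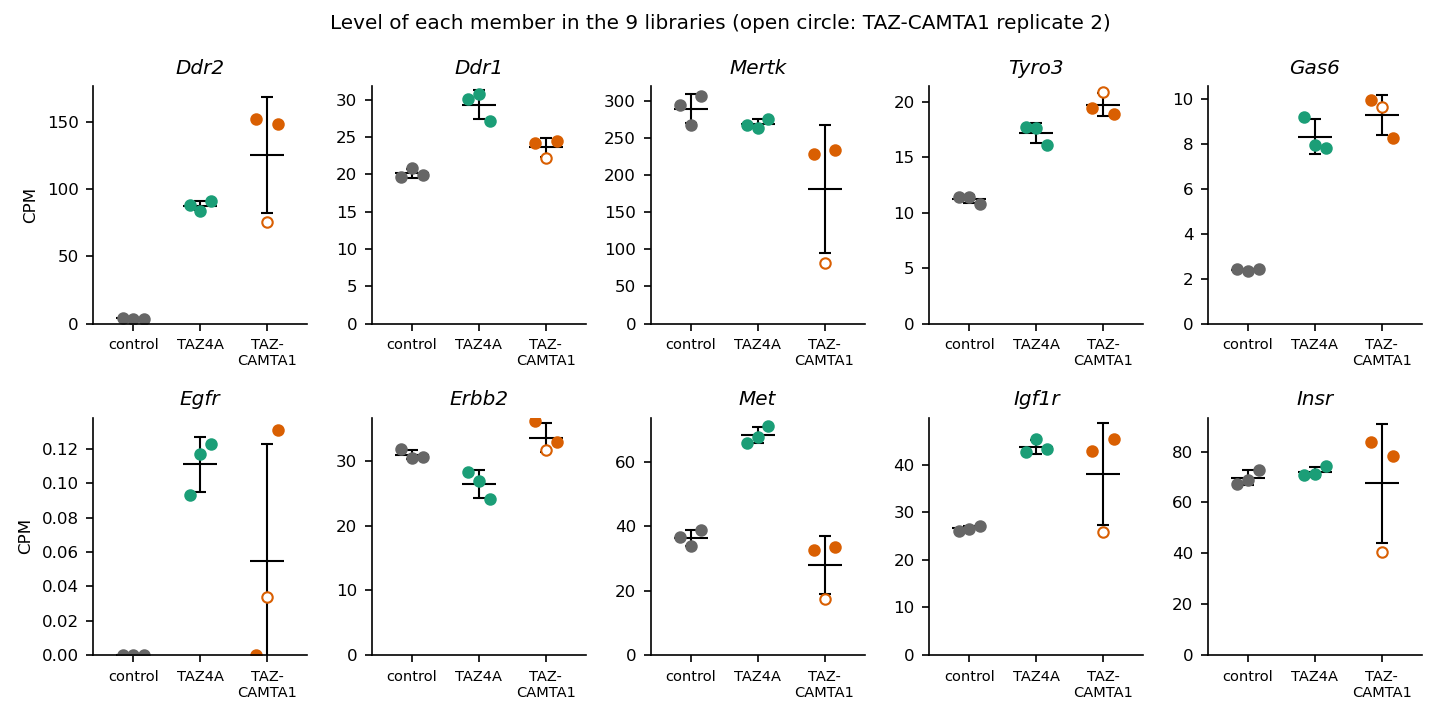
CPM (y axis, linear from 0, a separate scale per gene) of each member in each library, grouped by construct (x axis); horizontal lines are means and bars are SDs of 3 libraries, and the open circle is TAZ-CAMTA1 replicate 2. All 6 libraries with a TAZ construct lie above the controls for Ddr2, Gas6, Tyro3 and Ddr1, whereas Met is high only in the TAZ4A-labelled libraries.

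Ddr2 (chromosome 1, 169972307 to 170110762, minus strand, GRCm38, the build of mm10) encodes a receptor for fibrillar collagens. Its level was 4.09, 3.53 and 3.6 CPM in control replicates 1 to 3. It was 88.3, 83.8 and 90.9 CPM in the TAZ4A-labelled libraries, and 152, 75.5 and 148 CPM in TAZ-CAMTA1. Every library with a construct was thus far above every control, and TAZ-CAMTA1 replicate 2 fell below the TAZ4A range while replicates 1 and 3 lay above it. In the TAZ4A-labelled libraries the mean was 23.4 times that of control (log2 fold change 4.38, SE 0.24, adjusted p = 4.2e-06, limma with Benjamini-Hochberg adjustment over all 12350 genes tested), position 14 among all genes by the size of the rise. With TAZ-CAMTA1 the log2 fold change that led to the choice of Ddr2 was 4.82, the third largest of all tested genes after Lcn2 at 5.72 and Prnd at 5.31 and just before Steap4 at 4.40. It was 5.15 without TAZ-CAMTA1 replicate 2. Both constructs were compared with the same control libraries. Their low Ddr2 levels were part of the choice, so the p-value and position with TAZ4A are not independent of it. TAZ-CAMTA1 exceeded TAZ4A by 0.44 on the log2 scale with all libraries and by 0.77 without replicate 2, again as a description.

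The reads of Ddr2 were also spliced along the whole gene. Uniquely mapped junction reads over its 23 annotated introns numbered 9, 16 and 18 in control, 407, 372 and 336 in the TAZ4A-labelled libraries, and 580, 110 and 433 in TAZ-CAMTA1. Relative to all unique junction reads of a library (RPM), the mean was 1.63 ± 0.226 RPM in control and 38.8 ± 3.92 in the TAZ4A-labelled libraries (SD, n = 3; two-sided exact permutation p = 0.1, the smallest that 3 against 3 samples allow). Control libraries, whose levels entered the choice of Ddr2, had at most 3 reads on any single intron of the main chain. An antisense gene on the other strand, 3110045C21Rik, overlaps Ddr2 exons, and whether counting used strand is not given; it averaged 0.551, 1.15 and 1.55 CPM in control, TAZ4A-labelled and TAZ-CAMTA1 libraries, far below Ddr2.

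**Figure D3:**
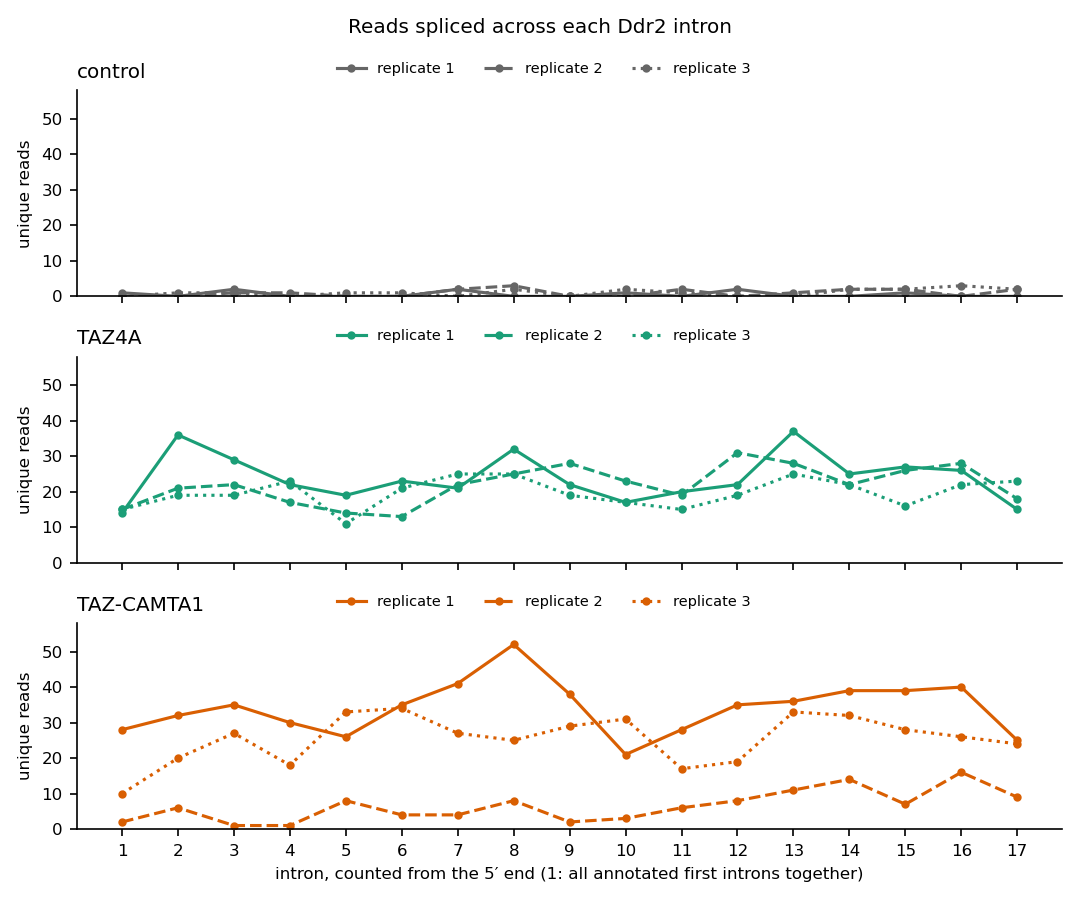
Uniquely mapped reads (y axis) across each intron of Ddr2 from the 5′ end (x axis; the first position sums the annotated first introns), 1 line per library and 1 panel per group. The controls stay at 0 to 3 reads throughout, the libraries labelled TAZ4A lie between 11 and 37, and TAZ-CAMTA1 replicate 2, at 1 to 16, runs below its fellow replicates.

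The first intron showed which annotated first exon the spliced reads joined. GENCODE annotates 4 first introns that end at the same acceptor, base 170088945. The longest of them, 21677 bases from the first exon of Ddr2-203 and Ddr2-206, took 44 reads in the TAZ4A-labelled libraries (14, 15 and 15) and 39 in TAZ-CAMTA1 (28, 2 and 9), and none in control. Of the others, that of Ddr2-205 had 1 read in control replicate 1 and 1 in TAZ-CAMTA1 replicate 3, and the remaining 2 had 0 reads in every library. The controls had only 1 read on the next intron as well (0, 0 and 1), so their first exon was not detectable at this depth. RefSeq, in contrast, places the start of Ddr2 at base 170088944, the first base after that acceptor. The RefSeq bases just before it are shown because the spliced reads cross them as the end of an intron; the capitals mark the AG acceptor, which follows a pyrimidine-rich stretch (GRCm38.p6, chr1:170088945-170089044, minus strand).
Ddr2 intron end: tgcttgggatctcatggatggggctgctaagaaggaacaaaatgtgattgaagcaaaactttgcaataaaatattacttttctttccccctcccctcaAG

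Ddr1 (chromosome 17, 35681567 to 35704621, minus strand) encodes the other collagen receptor, best known from epithelium. It was at 19.7, 20.8 and 19.9 CPM in control, 30.1, 30.8 and 27.2 in the TAZ4A-labelled libraries, and 24.2, 22.2 and 24.5 in TAZ-CAMTA1. The 3 groups did not overlap. The rise was 1.46-fold in the TAZ4A-labelled libraries (log2 fold change 0.53, SE 0.08, adjusted p = 0.0013, limma), and TAZ-CAMTA1 was lower than TAZ4A by a log2 difference of -0.31 (SE 0.08, adjusted p = 0.016). The latter call was lost without TAZ4A replicate 1 or 2 (adjusted p = 0.068 and 0.073) and with only the 6 samples compared (adjusted p = 0.06), and was -0.26 (adjusted p = 0.0031) without TAZ-CAMTA1 replicate 2. TAZ-CAMTA1 against control gave 0.22 (SE 0.08, adjusted p = 0.06) and, without TAZ-CAMTA1 replicate 2, 0.27 (SE 0.07, adjusted p = 0.0029). Junction reads of Ddr1 did not show that rise, at 22.3 ± 1.19 RPM in control and 22.6 ± 2.82 in TAZ-CAMTA1 (SD, n = 3). They averaged 30.7 ± 1.3 RPM in the TAZ4A-labelled libraries. So Ddr1, at most 1.46 times its control level, and Ddr2, over 20 times in each group mean, moved on very different scales.

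Transcripts of Ddr1 differ by an in-frame exon of 111 bases (37 codons) that distinguishes its b isoform from the a isoform in the juxtamembrane region. It is exon 13 of Ddr1-203, chr17:35686481-35686591, and is shown in capitals with 15 bases of the neighbouring exons.
Ddr1 isoform exon: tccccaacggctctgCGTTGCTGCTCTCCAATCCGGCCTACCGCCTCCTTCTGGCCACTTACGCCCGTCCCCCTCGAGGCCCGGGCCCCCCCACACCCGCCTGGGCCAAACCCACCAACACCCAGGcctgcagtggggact
Over all libraries, 17 and 22 reads entered and left this exon and 10 skipped it, so both forms were seen. With 1 skipping read in control, 7 in the TAZ4A-labelled libraries and 2 in TAZ-CAMTA1, the reads were too few to compare the groups.

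Mertk (chromosome 2, 128698956 to 128802894), the TAM receptor that macrophages use to engulf dying cells, was at 294, 268 and 306 CPM in control, 268, 264 and 276 in the TAZ4A-labelled libraries and 228, 82.1 and 234 in TAZ-CAMTA1. All TAZ-CAMTA1 libraries were below all others, and replicate 2 far below. Neither construct changed Mertk past the threshold with all libraries: the log2 fold change was -0.10 (SE 0.35, adjusted p = 0.88, limma) in the TAZ4A-labelled libraries and -0.82 (SE 0.35, adjusted p = 0.11) in TAZ-CAMTA1. Without TAZ-CAMTA1 replicate 2 the first value was -0.10 (SE 0.05, adjusted p = 0.079) and the second was -0.32 (SE 0.05, adjusted p = 8.5e-05). TAZ-CAMTA1 against TAZ4A was -0.72 (SE 0.35, adjusted p = 0.14) with all libraries and -0.22 (SE 0.05, adjusted p = 0.0021) without replicate 2. The macrophage and blood markers beside it were led by Cd68 at 488, 398 and 563 CPM, while Ptprc, which defines blood cells, was below 0.1 CPM on average in all groups. The whole list, of which 5 were in the table, summed to 452.6 to 524.9 CPM in control, 396.4 to 404.7 in the TAZ4A-labelled libraries and 463 to 714.5 in TAZ-CAMTA1. Within it Lyz2, the lysozyme of myeloid cells, averaged 0.0104, 1.45 and 6.83 CPM, Cd14 1.64, 0.999 and 1.34 CPM, and Itgam 0.106, 0.171 and 0.105 CPM. Their part in the level of Mertk was not tested.

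Tyro3 (chromosome 2, 119797733 to 119818104), a TAM receptor best known from the nervous system, rose with both constructs. It was at 11.4, 11.4 and 10.8 CPM in control, 17.7, 17.6 and 16.1 in the TAZ4A-labelled libraries, and 19.4, 20.9 and 18.9 in TAZ-CAMTA1. No library of a construct overlapped the controls. The log2 fold change was 0.59 (SE 0.08, adjusted p = 6.9e-04, limma) in the TAZ4A-labelled libraries and 0.79 (SE 0.08, adjusted p = 1.6e-04) in TAZ-CAMTA1. The difference between the constructs was 0.20 (SE 0.08, adjusted p = 0.082). Leaving out TAZ-CAMTA1 replicate 2 gave 0.75 (adjusted p = 3.4e-07) against control and 0.15 (adjusted p = 0.079) between the constructs.

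Gas6 (chromosome 8, 13465374 to 13494490, minus strand) encodes the vitamin K-dependent ligand of all TAM receptors. Its level was 2.41, 2.36 and 2.41 CPM in control, 9.22, 7.96 and 7.80 in the TAZ4A-labelled libraries, and 9.97, 9.64 and 8.28 in TAZ-CAMTA1. The construct groups overlapped each other and neither overlapped control. Gas6 rose 3.47-fold in the TAZ4A-labelled libraries (log2 fold change 1.60, SE 0.10, adjusted p = 9.4e-06, limma) and 3.88-fold in TAZ-CAMTA1 (1.75, SE 0.10, adjusted p = 8.9e-06), and the constructs differed by 0.15 (SE 0.10, adjusted p = 0.28). Leaving out TAZ-CAMTA1 replicate 2 gave 1.73 (adjusted p = 1.8e-09) and 0.12 (adjusted p = 0.33) for the last pair of comparisons. Its junction reads showed the same split, with 27, 34 and 20 in control, 119, 100 and 112 in the TAZ4A-labelled libraries, and 119, 100 and 83 in TAZ-CAMTA1. With all libraries, the ligand and the rarer receptor Tyro3 rose, whereas the abundant receptor Mertk did not pass the test in either direction; it fell past the threshold in TAZ-CAMTA1 when replicate 2 was left out, as given above. The remaining TAM receptor, Axl, was not chosen with the members and is described with the wider family.

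Egfr (chromosome 11, 16752203 to 16918158), the receptor for EGF and its relatives, was barely detected. It had 0 reads in each control library, 3, 4 and 4 in the TAZ4A-labelled libraries, and 0, 1 and 3 in TAZ-CAMTA1. Its levels were 0.0929, 0.117 and 0.123 CPM in the TAZ4A-labelled libraries and 0, 0.0336 and 0.131 CPM in TAZ-CAMTA1, near or below the level that 3 reads give. A count of 0 allows up to 0.139, 0.0897 and 0.094 CPM in control replicates 1 to 3, each library by itself. For the 3 controls as a group the limit is lower, and it was not computed. Egfr did not pass the filter on low values, so no fold change is given. The authors' deposited table lists a log2 fold change of 4.79 with a false discovery rate of 0.0019 for control and TAZ4A, which rests on those 11 reads. With no filter on low values, the limma fit called 7 members with TAZ4A in place of 6, and the added member was Egfr. Only 6 reads were spliced across annotated Egfr introns, 2, 2 and 0 in the TAZ4A-labelled libraries and 0, 0 and 2 in TAZ-CAMTA1.

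Erbb2 (chromosome 11, 98412470 to 98437716), the co-receptor of that family that binds no ligand of its own, was at 31.9, 30.6 and 30.7 CPM in control, 28.4, 27.0 and 24.1 in the TAZ4A-labelled libraries, and 36.2, 31.8 and 33.0 in TAZ-CAMTA1. The libraries labelled TAZ4A were below all others, and TAZ-CAMTA1 overlapped control. TAZ-CAMTA1 exceeded TAZ4A by 0.34 on the log2 scale (SE 0.09, adjusted p = 0.014, limma). This call was lost in TPM (0.23, adjusted p = 0.2), without TAZ4A replicate 3 (0.28, adjusted p = 0.06) and with only the 6 samples compared (0.34, adjusted p = 0.055). Against control the values were -0.23 (SE 0.09, adjusted p = 0.088) in the TAZ4A-labelled libraries and 0.11 (SE 0.09, adjusted p = 0.34) in TAZ-CAMTA1. Without TAZ-CAMTA1 replicate 2, which enters the shared estimate of the spread, the first of these had an adjusted p of 0.0058 at the same size, the second was 0.15 (adjusted p = 0.077) and TAZ-CAMTA1 exceeded TAZ4A by 0.38 (adjusted p = 2.3e-04).

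Met (chromosome 6, 17463800 to 17573980), the receptor for hepatocyte growth factor, had the largest difference between the constructs among the 8 members tested for it. It was at 36.7, 33.8 and 38.8 CPM in control, 66.1, 67.9 and 71.2 in the TAZ4A-labelled libraries, and 32.7, 17.5 and 33.7 in TAZ-CAMTA1. All libraries labelled TAZ4A were above, and all TAZ-CAMTA1 libraries below, every control. The rise with TAZ4A was 1.88-fold (log2 fold change 0.90, SE 0.22, adjusted p = 0.018, limma). TAZ-CAMTA1 against control gave -0.43 (SE 0.22, adjusted p = 0.17), and TAZ-CAMTA1 against TAZ4A gave -1.33 (SE 0.22, adjusted p = 0.0019). Without TAZ-CAMTA1 replicate 2 these were 0.90 (adjusted p = 9.0e-10), -0.13 (adjusted p = 0.083) and -1.03 (adjusted p = 7.6e-10). The call against control was lost in the 9-library fit when control replicate 1 or 2 or any 1 TAZ4A library was left out (adjusted p = 0.054 to 0.069).

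Met also has an in-frame exon of 141 bases (47 codons), exon 15 of Met-203 at chr6:17549032-17549172, in the juxtamembrane region. It carries the docking site of the ubiquitin ligase Cbl, and its loss in human lung tumours leaves a receptor that is degraded more slowly. It is shown because its use could be read directly, with the exon in capitals and 15 bases of its neighbours in lower case.
Met juxtamembrane exon: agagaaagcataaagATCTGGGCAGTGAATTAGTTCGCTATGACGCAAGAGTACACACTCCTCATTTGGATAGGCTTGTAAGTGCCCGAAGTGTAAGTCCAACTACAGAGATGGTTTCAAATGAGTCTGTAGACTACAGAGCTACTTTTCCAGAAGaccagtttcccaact
In all libraries together 141 and 144 reads entered and left the exon and 3 skipped it, an inclusion of 97.9%. The 3 skipping reads came from TAZ4A replicates 2 and 3 (2 and 1 reads), among 76 and 70 reads of inclusion in that group. Control had 40 and 39 reads of inclusion, TAZ-CAMTA1 had 25 and 35, and neither had a skipping read.

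Igf1r (chromosome 7, 67952827 to 68233668), the receptor for the insulin-like growth factors, was at 26.1, 26.5 and 27.2 CPM in control, 42.7, 45.4 and 43.2 in the TAZ4A-labelled libraries and 42.9, 25.8 and 45.5 in TAZ-CAMTA1. All libraries labelled TAZ4A and TAZ-CAMTA1 replicates 1 and 3 were above control, and TAZ-CAMTA1 replicate 2 was just below it. The log2 fold change in the TAZ4A-labelled libraries was 0.71 (SE 0.19, adjusted p = 0.025, limma). That call was lost when any of the 6 libraries compared was left out (adjusted p = 0.069 to 0.085) and in TPM (adjusted p = 0.075). Without TAZ-CAMTA1 replicate 2, which enters the shared estimate of the spread, the value was 0.71 (SE 0.05, adjusted p = 6.2e-09). With only the 6 samples compared the adjusted p was 6.5e-09. With TAZ-CAMTA1 the log2 fold change was 0.47 (SE 0.19, adjusted p = 0.091), and 0.72 (SE 0.06, adjusted p = 3.0e-08) without replicate 2. TAZ-CAMTA1 against TAZ4A was -0.24 (SE 0.19, adjusted p = 0.34) with all libraries and 0.01 (SE 0.06, adjusted p = 0.84) without replicate 2.

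Insr (chromosome 8, 3122061 to 3279617, minus strand), the insulin receptor, was at 67.3, 68.9 and 72.9 CPM in control, 70.6, 71.3 and 74.2 in the TAZ4A-labelled libraries, and 83.6, 40.6 and 78.2 in TAZ-CAMTA1. Control and TAZ4A overlapped, and TAZ-CAMTA1 lay above both in replicates 1 and 3 and below both in replicate 2. The log2 fold change was 0.05 (SE 0.24, adjusted p = 0.92, limma) with TAZ4A and -0.12 (SE 0.24, adjusted p = 0.73) with TAZ-CAMTA1. The direction of the second value turned without replicate 2, to 0.21 (SE 0.05, adjusted p = 0.0032), as did TAZ-CAMTA1 against TAZ4A, from -0.16 (SE 0.24, adjusted p = 0.61) to 0.17 (SE 0.05, adjusted p = 0.015). The value with TAZ4A was then 0.05 (SE 0.05, adjusted p = 0.43).

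The isoforms of the insulin receptor differ by an exon of 36 bases (12 codons), absent from the A form and present in the B form. In the annotation it is exon 4 of the transcript Insr-203, chr8:3181702-3181737, and it is shown in capitals with 15 bases on each side.
Insr isoform exon: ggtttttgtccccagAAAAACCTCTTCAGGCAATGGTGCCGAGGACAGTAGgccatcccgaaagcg
Reads that skip it prevailed in every group, with 44 skipping against 6 and 3 reads of inclusion in control, 39 against 9 and 5 in the TAZ4A-labelled libraries, and 22 against 5 and 4 in TAZ-CAMTA1. Over all libraries the inclusion was 13.2%, so reads of the A form prevailed. None of the 7 annotated cassette exons of the members had the 20 reads in every library that a comparison between groups required.

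Counted together, 6 of the 9 tested members rose in the TAZ4A-labelled libraries (Ddr1, Ddr2, Tyro3, Gas6, Met and Igf1r) and 0 fell. This count and the median for TAZ4A include Ddr2, whose choice used the same control libraries. The count fell to 4 without control replicate 1 or 2 or any 1 TAZ4A library, and to 5 without control replicate 3 or in TPM. All genes called fell in these settings too, from 3077 to between 2101 and 2752. Of all 12350 genes, 13.2% rose and 11.7% fell in that comparison. The members' median log2 fold change was 0.59, against -0.01 for all tested genes. In TAZ-CAMTA1 against control, Ddr2 apart, 2 of 8 members rose (Tyro3 and Gas6) and 0 fell, against 16.8% and 15.3% of all genes, with a median of 0.17 against -0.03. In TAZ-CAMTA1 against TAZ4A, 1 of the 8 was higher (Erbb2) and 2 were lower (Ddr1 and Met), against 19.4% and 18.5% of all genes, with a median of -0.20 against -0.02.

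Leaving out TAZ-CAMTA1 replicate 2 raised the share of all genes called in every comparison and direction, so the members' counts have to be read beside it. In the TAZ4A-labelled libraries, 6 members then rose, Ddr2 included, and 1 fell (Erbb2), beside 28.1% and 30.3% of all genes. In TAZ-CAMTA1 against control 5 of 8 rose (Ddr1, Tyro3, Gas6, Igf1r and Insr) and 1 fell (Mertk), beside 28.5% and 32.3%. In TAZ-CAMTA1 against TAZ4A 2 of 8 were higher (Erbb2 and Insr) and 3 lower (Ddr1, Mertk and Met), beside 30.8% and 32.2%.

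**Figure D4:**
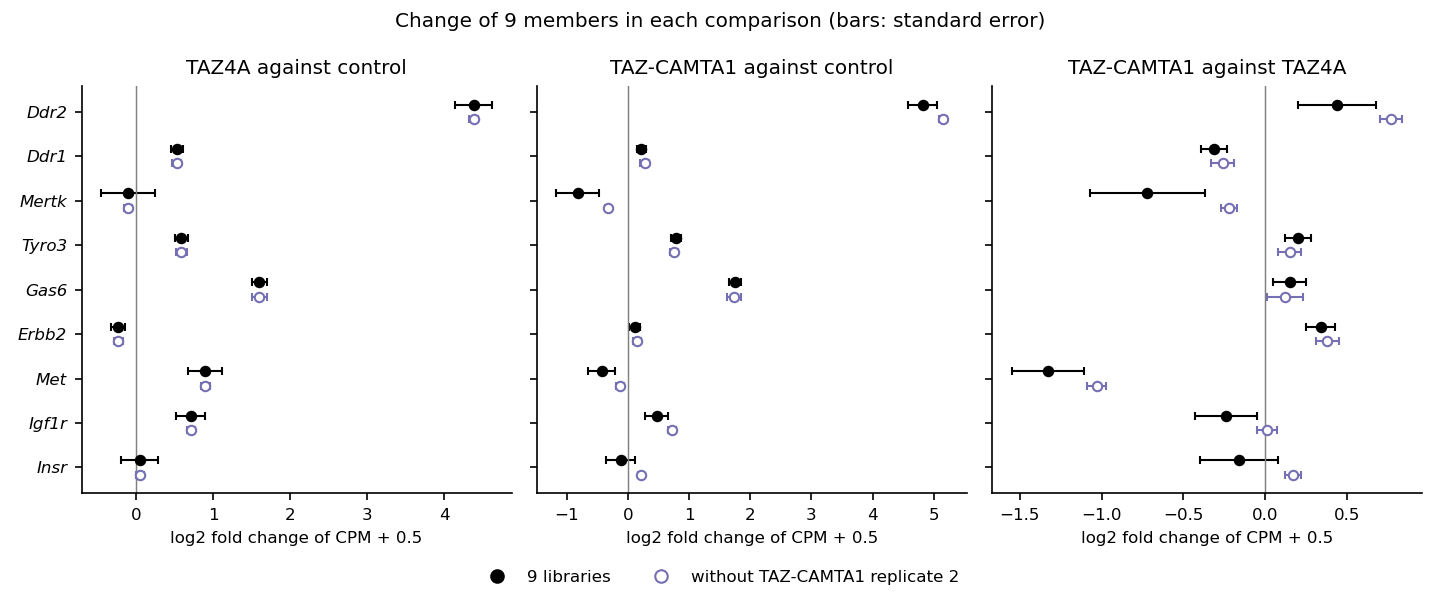
Log2 fold change (x axis) of the 9 tested members (y axis) in each comparison, with standard errors as bars; filled points use 9 libraries and open points leave out TAZ-CAMTA1 replicate 2. Ddr2 stands far to the right against control with either construct, Met differs most between the constructs, and Insr and Igf1r cross 0 in TAZ-CAMTA1 against TAZ4A when the library is left out.

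Of 58 receptor tyrosine kinases listed, members included, 49 were in the table and 33 were tested. Outside the members, 25 were tested: 7 rose and 4 fell in the TAZ4A-labelled libraries (median log2 fold change 0.16), 9 rose and 3 fell in TAZ-CAMTA1 (0.26), and 10 were higher and 5 lower in TAZ-CAMTA1 than in TAZ4A (0.20). The shares of all tested genes that rose and fell were 13.2% and 11.7%, 16.8% and 15.3%, and 19.4% and 18.5% in the same order. The receptor counts became 11 and 11, 13 and 4, and 14 and 7 without TAZ-CAMTA1 replicate 2, where 28.1% and 30.3%, 28.5% and 32.3%, and 30.8% and 32.2% of all genes were called.

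The largest rise after Ddr2 in the TAZ4A-labelled libraries was that of Axl, the third TAM receptor, from 0.328 to 12.4 CPM (log2 fold change 3.98, SE 0.12, adjusted p = 9.7e-08, limma). In TAZ-CAMTA1 Axl averaged 0.605 CPM (0.43, SE 0.12, adjusted p = 0.025), and TAZ-CAMTA1 against TAZ4A gave -3.55 (adjusted p = 2.7e-07). The Eph receptor Epha7 averaged 5.0, 18.6 and 2.21 CPM in control, TAZ4A-labelled and TAZ-CAMTA1 libraries, a rise with the first construct (1.79, adjusted p = 3.0e-04) and a fall with the second (-1.07, adjusted p = 0.0048). Ephb6 averaged 0.662, 3.06 and 0.962 CPM (1.62, adjusted p = 1.3e-05, with TAZ4A; 0.33 with the fusion, adjusted p = 0.048 and, without TAZ-CAMTA1 replicate 2, 0.053). These 3 receptors were higher with TAZ4A than with the fusion.

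Receptors of mesenchymal and vascular cells moved in other ways. Pdgfra, a receptor for platelet-derived growth factor, rose with both constructs, from 2.95 to 9.03 CPM (a log2 change of 1.46, adjusted p = 0.0011, limma) and to 7.19 CPM (1.11, adjusted p = 0.0048). Pdgfrb also rose with both, from 2.49 to 4.30 and 5.19 CPM (0.68 and 0.92, adjusted p = 0.0035 and 6.7e-04). Both belong to the list of 9 fibroblast and mesenchymal markers, whose sum was higher with both constructs. They had the highest averages of that list in every group, so the sum is not separate from their rise. In that list Dcn averaged 0, 2.04 and 0.0112 CPM in control, TAZ4A-labelled and TAZ-CAMTA1 libraries, Col1a1 0.102, 0.655 and 0.596, Col1a2 0.212, 0.232 and 0.447, and Col3a1 1.22, 4.21 and 3.39, while Lum, Thy1 and Postn stayed below 0.1 CPM. The part of such cells in the levels of Pdgfra, Pdgfrb or Ddr2 was not tested.

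Kit, the receptor for stem cell factor, fell from 595 to 198 CPM in the TAZ4A-labelled libraries (log2 fold change -1.59, adjusted p = 7.1e-04, limma), and the angiopoietin co-receptor Tie1 fell from 2340 to 1120 CPM (-1.07, adjusted p = 7.8e-06). Ephb4, the ephrin-B2 receptor of veins, went from 233 to 160 CPM (-0.54, adjusted p = 0.0019). In TAZ-CAMTA1, Kit averaged 418 CPM, Tie1 2230 CPM and Ephb4 260 CPM, and their differences from control, -0.56, -0.07 and 0.15 on the log2 scale, did not pass (adjusted p = 0.073, 0.46 and 0.2). Kit did pass without TAZ-CAMTA1 replicate 2, at a smaller size (-0.27, adjusted p = 1.1e-04). All of them were higher in TAZ-CAMTA1 than in TAZ4A, by 1.02, 1.00 and 0.70 on the log2 scale (adjusted p = 0.0057, 1.2e-05 and 3.7e-04). Fgfr1, a fibroblast growth factor receptor, fell with TAZ4A (-0.47, adjusted p = 0.008) and rose with the fusion (0.79, adjusted p = 5.0e-04), at 68.8, 49.6 and 120 CPM in the order control, TAZ4A and TAZ-CAMTA1. The rises named for TAZ-CAMTA1 also include Aatk, from 9.99 to 22.1 CPM (1.11, adjusted p = 6.3e-05), and Flt4, the lymphatic VEGF receptor, from 102 to 206 CPM (0.98, adjusted p = 0.0022). The falls include Epha4, from 26.9 to 14 CPM (-1.01, adjusted p = 0.024; -0.63 without replicate 2, adjusted p = 4.7e-06), and Styk1, from 2.78 to 1.66 CPM (-0.60, adjusted p = 0.0022).

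**Figure D5:**
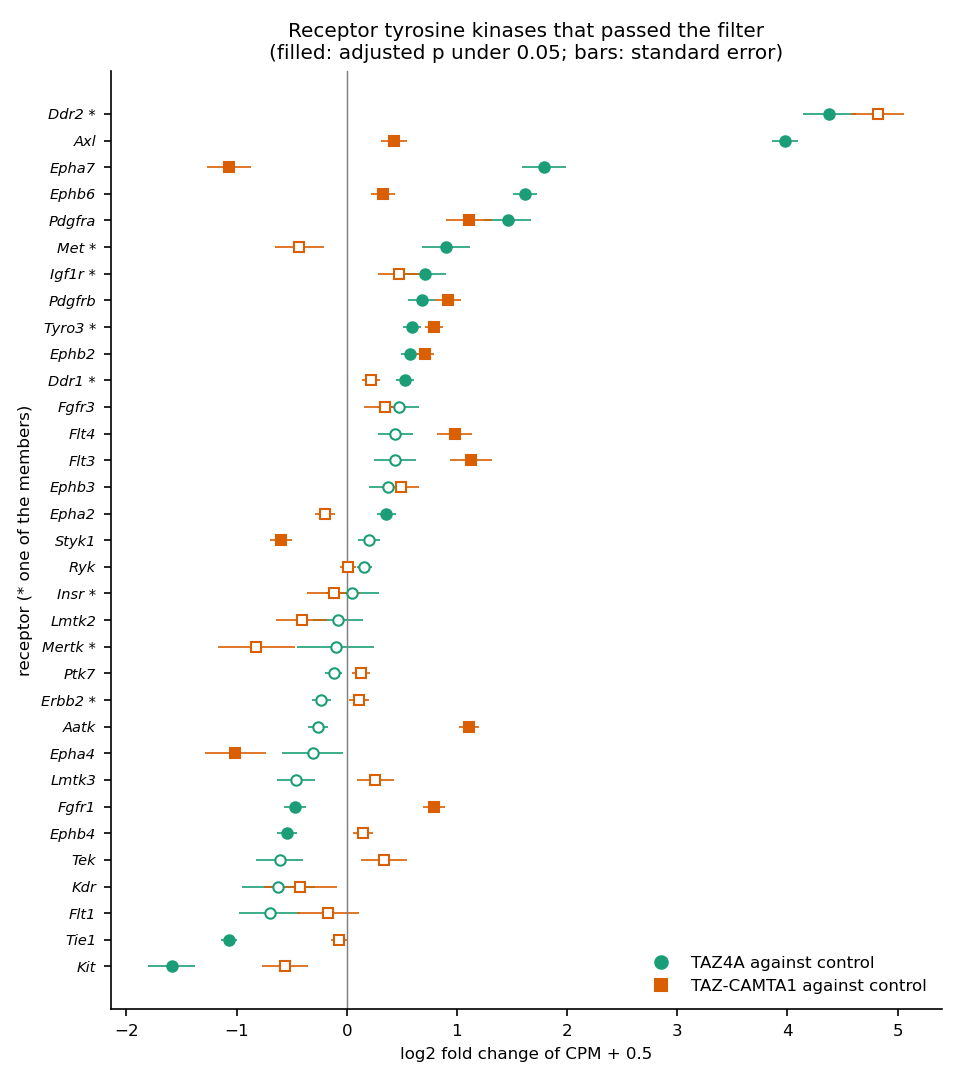
Log2 fold change (x axis) of the 33 tested receptor tyrosine kinases (y axis, members starred), with circles for TAZ4A against control and squares for TAZ-CAMTA1 against control, standard errors as bars and filled symbols for an adjusted p under 0.05; Ddr2 in TAZ-CAMTA1 is open because it was not tested. Ddr2 is far to the right with either construct, whereas Axl and Epha7 are so only with TAZ4A, and both comparisons share the same controls.

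Among the 27 listed ligands of the members 24 were in the table and 16 were tested: 9 rose and 3 fell in the TAZ4A-labelled libraries, 6 rose and 0 fell in TAZ-CAMTA1, and 5 were higher and 6 lower in TAZ-CAMTA1 than in TAZ4A. Of all tested genes, 13.2% and 11.7%, 16.8% and 15.3%, and 19.4% and 18.5% were called in these directions. Leaving out TAZ-CAMTA1 replicate 2 gave 10 and 3, 9 and 1, and 5 and 6 ligands, when 28.1% to 32.3% of all genes were called in a direction. The fibrillar collagen gene Col3a1, whose product both discoidin receptors bind, rose with both constructs from 1.22 to 4.21 and 3.39 CPM (log2 fold changes 1.47 and 1.19, adjusted p = 3.6e-04 and 0.0012, limma). The far more abundant basement membrane collagen Col4a1, which activates Ddr1 but not Ddr2, fell from 3420 to 1820 CPM in the TAZ4A-labelled libraries (-0.91, adjusted p = 0.0034) and was at 3900 CPM in TAZ-CAMTA1 (0.16, adjusted p = 0.47). It was called higher in TAZ-CAMTA1 than in control when replicate 2 was left out (0.37, adjusted p = 4.9e-06). Its partner Col4a2 went from 1670 to 1010 CPM with TAZ4A (-0.73, adjusted p = 0.0024), and in TAZ-CAMTA1 its change was 0.21 (adjusted p = 0.22), or 0.34 without replicate 2 (adjusted p = 6.9e-05). Nrg1, which signals through Erbb3 or Erbb4 with Erbb2, averaged 9.65, 50.3 and 9.64 CPM (2.33 with TAZ4A, adjusted p = 5.3e-06). Erbb4 was not among the gene rows, and Erbb3 did not pass the filter on low values. Ereg averaged 28.6, 70.6 and 21.2 CPM (1.29 with TAZ4A, adjusted p = 3.4e-04; -0.44 with the fusion, adjusted p = 0.055, or -0.26 without replicate 2, adjusted p = 0.0057). Btc was highest in TAZ-CAMTA1, at 0.836, 1.5 and 3.68 CPM (0.58 with TAZ4A, adjusted p = 0.04, and 1.62 with the fusion, adjusted p = 2.4e-04).

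All 20 listed adaptors and effectors were tested: 3 rose and 3 fell in the TAZ4A-labelled libraries, 2 rose and 3 fell in TAZ-CAMTA1, and 0 were higher and 2 lower in TAZ-CAMTA1 than in TAZ4A. With all libraries the background shares are those given for the ligands with all libraries, and 3 of 20 is near them. Leaving out TAZ-CAMTA1 replicate 2 gave 7 and 8, 5 and 4, and 6 and 5, when 28.1% to 32.3% of all genes were called in a direction. Irs1, the docking protein of the insulin and IGF1 receptors, rose from 0.661 to 8.39 CPM with TAZ4A (log2 fold change 2.94, adjusted p = 4.5e-06, limma) and was at 1.19 CPM with TAZ-CAMTA1 (0.52, adjusted p = 0.04). Gab1, the docking protein best known downstream of Met, rose with both, from 4.8 to 9.7 and 9.0 CPM (0.94 and 0.84, adjusted p = 8.6e-05 and 2.1e-04). Nck1 fell with both (-0.57 and -0.38, adjusted p = 0.0011 and 0.0088). Shc1 fell with TAZ4A (-0.36, adjusted p = 0.039). Pik3r1, the regulatory subunit of PI3K, was lower in TAZ-CAMTA1 than in TAZ4A (-0.76, adjusted p = 0.013), and Rasa1, which switches Ras off, fell with the fusion (-0.65, adjusted p = 0.023; -0.42 without replicate 2, adjusted p = 2.3e-05).

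Of 18 listed inhibitors of receptor signalling 14 were tested: 5 rose and 3 fell in the TAZ4A-labelled libraries, 2 rose and 2 fell in TAZ-CAMTA1, and 2 were higher and 4 lower in TAZ-CAMTA1 than in TAZ4A, beside the same shares of all genes. Leaving out TAZ-CAMTA1 replicate 2 gave 9 and 3, 7 and 2, and 4 and 4, when 28.1% to 32.3% of all genes were called in a direction. Socs2 rose with both constructs, from 1.2 to 5.99 and 5.34 CPM (log2 fold changes 1.94 and 1.79, adjusted p = 1.1e-05 and 2.7e-05, limma). Errfi1, a feedback inhibitor of the EGF receptor family, rose from 125 to 193 and 206 CPM (0.63 and 0.72, adjusted p = 7.5e-04 and 3.9e-04). Socs3 fell from 65.7 to 26.5 and 48.1 CPM (-1.29 and -0.46, adjusted p = 1.5e-04 and 0.028), and Cblb, a ubiquitin ligase for activated receptors, from 63.1 to 43.4 and 41.5 CPM (-0.53 and -0.63, adjusted p = 0.035 and 0.015). Grb10 and Lrig1 were higher with TAZ4A, from 19.0 to 39.7 CPM (1.05, adjusted p = 0.002) and from 111 to 200 CPM (0.84, adjusted p = 0.0041), and averaged 21.6 and 103 CPM in TAZ-CAMTA1. Against control these were 0.15 and -0.13 (adjusted p = 0.51 and 0.54), and 0.37 and 0.07 without replicate 2 (adjusted p = 6.1e-05 and 0.21). Sh2b3 was higher and Ptprj lower in TAZ-CAMTA1 than in TAZ4A (0.58 and -0.91, adjusted p = 0.015 and 0.044). The value of Ptprj was -0.50 without replicate 2 (adjusted p = 3.3e-04).

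The genes whose pattern was most like that of Ddr2 were sought among 10055 genes with at least 5 CPM in a group, by Pearson correlation of log2 levels over the 9 libraries, which share their 3 groups. The 5 closest were the collagen VI gene Col6a1 (r = 0.9973), the transporter gene Slco3a1 (0.9970), the metalloreductase gene Steap4 (0.9961), the laminin gene Lamb1 (0.9934) and Errfi1 (0.9923). They ranked 4, 5, 10, 20 and 18 without TAZ-CAMTA1 replicate 2. Col6a1 averaged 10.9, 29.5 and 31.7 CPM in control, TAZ4A-labelled and TAZ-CAMTA1 libraries, Lamb1 158, 351 and 416 CPM, Slco3a1 64.8, 138 and 158 CPM, and Steap4 0.0409, 10.9 and 11.2 CPM.

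Promoter windows in RefSeq, 250 bases before to 50 after each start, existed for 9 of the 10 members, 12 windows in all. The motif GGAATG of the TEAD family, searched on both strands, was in 1 of them, that of Erbb2, against 14.7% of all 32851 windows. The AP-1 motif TGANTCA was in 2, a window of Met and one of Ddr1, against 7.81% of all windows. The RefSeq window of Ddr2 lies at the inner start described above and not at the first exon that the spliced reads used, whose upstream sequence was not analysed here.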

How the data were processed

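Poly-A RNA of 9 MS1 samples was sequenced by the authors with a stranded kit on an Illumina HiSeq, per the labels' protocols. The submitters' processing notes name bcl2fastq, FastQC, STAR, featureCounts, edgeR and the build mm10, with versions and the strand setting not given in the sources used here. The deposited gene values, named CPM by the authors, are a signal: reads divided by a scaled library size, summing to 976997 to 1028367 per library. The design assumed CPM, and the planned test was kept. Whole reads were recovered from them, with 100% of values whole within 0.01. The deposited TPM values, scaled for length by the authors, served for levels between genes. In the deposited junction files, STAR's counts are split into uniquely mapped reads (6410070 to 9889541 per library) and multiply mapped ones. A log2 fold change or p-value (a false discovery rate) credited to the authors' deposited table is theirs. Counting intervals and floors cover counting error only.

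Groups came from the sample titles. Log2(CPM + 0.5) of the 12350 genes with at least 0.5 CPM in 3 libraries was fitted with limma 3.58.1 in R 4.3.3 (trend and robust settings), with all 9 libraries in 1 fit of 6 residual degrees of freedom and Benjamini-Hochberg adjustment over all genes at 0.05. Fold changes on this scale understate low genes, and the median SE was 0.135. The script was tested on simulated data. Junction reads were compared with an exact permutation test. GENCODE vM21 (GRCm38, which is mm10) gave coordinates, introns and exon sequences, and the Ddr2 window is from RefSeq.

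The members, the 4 gene lists (123 entries) and the tests were chosen with earlier results of these data known. Besides the members, the text names per comparison up to 4 called receptors in each direction with at least 1 CPM, up to 2 called genes in each direction from each other list, and the 5 genes most like Ddr2. Wwtr1, Camta1, Ankrd1, the marker genes and the overlapping antisense gene were named besides. Alternatives were pseudocounts of 0.1 and 2, no filter, a minimum of 2 CPM, rescaled CPM, quantile normalization, TPM, the GENCODE vM4 table, only the 6 samples compared, the replicate block, library quality weights, edgeR 4.0.16 on whole reads, and leaving out each library.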

Additional observations from a re-analysis of the deposited data

Results flagged for a closer look

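Met differed between the constructs with opposite signs against the shared control, at 0.90 with TAZ4A and -0.43 with TAZ-CAMTA1 on the log2 scale, and the direct difference was -1.33 (adjusted p = 0.0019, limma). The TAZ-CAMTA1 value against control did not pass the threshold (adjusted p = 0.17). Without TAZ-CAMTA1 replicate 2 that value was -0.13 (adjusted p = 0.083), and the direct difference was -1.03.

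Erbb2 had the opposite pattern at a smaller size, -0.23 with TAZ4A and 0.11 with TAZ-CAMTA1, and the direct difference was 0.34 (adjusted p = 0.014, limma). Neither value against control passed the threshold with all libraries, and that of TAZ4A passed without TAZ-CAMTA1 replicate 2 (adjusted p = 0.0058).

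Splice junctions on the strand opposite to Egfr were more frequent than those of Egfr itself. Whether such reads enter the Egfr level above is not known, as the strand setting of the counting is not given. These junctions lay inside the Egfr gene between bases 16758561 and 16819024 of chromosome 11, are not annotated as Egfr introns, and their strand was read from the splice-site motif. They held 0, 1 and 1 unique reads in control, 13, 12 and 19 in the TAZ4A-labelled libraries and 7, 1 and 6 in TAZ-CAMTA1. Relative to all unique junction reads (RPM) the means were 0.0685 ± 0.0593 in control, 1.54 ± 0.424 in the TAZ4A-labelled libraries and 0.596 ± 0.409 in TAZ-CAMTA1 (SD, n = 3; two-sided exact permutation p = 0.1 for either construct against control, the smallest possible).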

How the results depend on the processing

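Of 567 recomputed log2 fold changes of members, 529 kept their direction and their side of the threshold (for Ddr2 with the fusion, stayed within 1 SD), 18 lost the call, 13 gained it, 1 moved (Ddr2 with the fusion, at a pseudocount of 2) and 6 turned direction. The calls of Ddr1, Ddr2, Tyro3 and Gas6 with TAZ4A, of Tyro3 and Gas6 with TAZ-CAMTA1 and of Met between the constructs held in all 21 alternatives. The losses of Igf1r, Met, Ddr1 and Erbb2 are given with those genes. With library quality weights, Insr turned to 0.22 in TAZ-CAMTA1 against control and to 0.18 against TAZ4A, and Igf1r to 0.00 against TAZ4A. Leaving out 1 library, these ran from -0.30 to 0.21, -0.35 to 0.17 and -0.39 to 0.01, each turning only without TAZ-CAMTA1 replicate 2.

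The weights raised the genes called to 7432 with TAZ4A, 7255 with TAZ-CAMTA1 and 8272 between the constructs, from 3077, 3966 and 4684. They gave 29 and 22 receptors of the family against control, and 6 members with TAZ-CAMTA1 and 5 between the constructs. Only the 6 samples compared gave 7233 genes and 28 receptors with TAZ4A, 2445 genes with TAZ-CAMTA1 and 1 member between the constructs. Without 1 library the genes called ran from 2101 to 7206, 2626 to 7516 and 3236 to 7779. The family ran from 13 to 28 with TAZ4A and 10 to 22 with TAZ-CAMTA1. The members ran from 4 to 7 with TAZ4A, 2 to 6 with TAZ-CAMTA1 and 2 to 5 between the constructs. The highest of each was without TAZ-CAMTA1 replicate 2; the 2626 was without control replicate 3.

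The replicate block gave 2890, 3881 and 4619 genes and 6, 2 and 3 members. Deviations correlated over 0.1 in 6 of 9 same-numbered pairs (-0.12 to 0.523, none of number 1 over 0.1) and in 3 of 18 other pairs (-0.527 to 0.563). Libraries matched their own number best in 13 of 18 cases, a hint from the data and not from the design, so the samples were not treated as paired.

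In the log2 ratios of junction reads, 12 of 175 turned direction. For TAZ-CAMTA1 against control, multiply mapped reads turned Ddr1 to -0.01. Without 1 library, Ddr1 ran from -0.06 to 0.11, Erbb2 from -0.02 to 0.23 and Insr from -0.72 to 0.18. Mertk ran from -0.03 to 0.08 with TAZ4A, and TAZ-CAMTA1 against TAZ4A ran from -0.18 to 0.12 for Tyro3 and -0.89 to 0.00 for Insr. The causes were not tested. Cassette exons could not be compared at 20 or 50 reads in every library. Depth limits Egfr and the exon counts.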
